A study of Homo sapiens with 8 samples.

Results

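The region described here is the stretch of the long arm of chromosome 3 from chr3:100000001-115000000 (hg19), where DNase hypersensitive sites (DHS) were unusually dense in PC9 and PC9R. It was selected on the number of DHS peaks per Mb in these same lists, so the DHS densities below are a description, with no test. Its members were all peaks of the 4 deposited peak lists that lay in it, 3172 of 282355 peaks, in 0.525% of the sequenced genome. They comprised 1251 of the 19648 DHS peaks of PC9, 877 of the 59600 DHS peaks of PC9R, 387 of the 85246 H3K4me2 peaks of PC9 and 657 of the 117861 H3K4me2 peaks of PC9R. Of the 24630 genes with RNA counts, 83 lay in the region, 68 of them protein-coding, and 45 had enough counts to be tested.

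PC9 is a human lung adenocarcinoma cell line with an activating EGFR mutation, and its growth is blocked by gefitinib, an inhibitor of the EGFR kinase. PC9R is the gefitinib-resistant line, which per the labels was obtained by screening PC9 cells under gefitinib for 1 to 2 weeks, and both lines were used at passages 8 to 12. Each line had 1 DHS library, 1 H3K4me2 library and 2 RNA-seq libraries. The labels do not say whether PC9R was a clone or a pool, whether gefitinib was present at harvest, or whether the paired RNA libraries are separate cultures. The p-values therefore cover the spread between libraries alone, which can be technical.

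DNase cuts DNA where nucleosomes are displaced, and such sites include active promoters, enhancers and insulators. H3K4me2, the dimethylated form of lysine 4 of histone H3, marks the nucleosomes beside active or poised promoters and enhancers, so a hypersensitive site within H3K4me2 is commonly read as a regulatory element and one without it less so. The chosen stretch of chromosome 3 alternates gene-rich blocks with wide gene-poor intervals, and it encodes several cell-surface receptors of the immunoglobulin superfamily (ALCAM, CD47, NECTIN3, CD96, CD200, BTLA, TIGIT), the ubiquitin ligase CBLB that dampens receptor tyrosine kinase signalling, and the PP2A inhibitor CIP2A.

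The first RNA library of each line was the deeper, with 32515891 counts in PC9 and 32502455 in PC9R, and the second ones had 16013058 and 16715426. The 5 epithelial markers (EPCAM, KRT8, KRT18, KRT19, CDH1) were all above 1 CPM (library-normalized counts) and summed to 5260 to 12000 CPM in PC9 and 5390 to 9700 in PC9R. Of the 3 lung lineage markers (NKX2-1, NAPSA, SFTPB) 1 reached 1 CPM, and they summed to at most 2.28 CPM. The T and NK cell markers summed to at most 0.157 CPM in any library. The 3 fibroblast markers summed to 6.07 to 24.1 CPM in PC9 and 13.7 to 64.3 in PC9R, and DCN was at 0. The endothelial markers summed to 12.4 to 20.8 and 19.7 to 45.5 CPM, and the myeloid ones to 8.61 to 8.62 and 13.7 to 17.5 CPM. Their part in the differences below was not tested.

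The sequences below are examples from the region, each up to 250 bases on the plus strand of GRCh37, in lower case, with any AP-1 (TGANTCA) or TEAD (GGAATG) motif in capitals. The first 3, taken from the middle of peaks, are DHS without H3K4me2, the kind that made up most of the region. They were chosen for high scores among those with H3K4me2 in neither line and outside annotated untranslated regions, so they are not typical of that kind. All 3 were present in both lines, which was not a condition of the choice. The first lies in an intron of CD96 at chr3:111173451-111173700, the second between genes at chr3:104822531-104822780, and the third in an intron of the noncoding gene LINC00882 at chr3:106439567-106439816. None of the 3 holds either motif, and their GC content is 55.2% to 56.8%.
CD96 intron, DHS without H3K4me2: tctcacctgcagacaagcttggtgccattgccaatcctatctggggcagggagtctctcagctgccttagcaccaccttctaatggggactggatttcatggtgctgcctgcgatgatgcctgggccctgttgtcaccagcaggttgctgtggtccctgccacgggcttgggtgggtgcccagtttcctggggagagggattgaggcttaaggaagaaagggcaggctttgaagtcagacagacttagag
Intergenic DHS without H3K4me2, before ALCAM: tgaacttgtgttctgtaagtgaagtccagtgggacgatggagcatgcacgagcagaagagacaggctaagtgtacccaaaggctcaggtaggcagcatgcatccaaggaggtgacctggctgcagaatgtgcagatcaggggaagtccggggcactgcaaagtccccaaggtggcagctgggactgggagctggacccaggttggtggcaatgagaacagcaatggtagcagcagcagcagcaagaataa
LINC00882 intron, DHS without H3K4me2: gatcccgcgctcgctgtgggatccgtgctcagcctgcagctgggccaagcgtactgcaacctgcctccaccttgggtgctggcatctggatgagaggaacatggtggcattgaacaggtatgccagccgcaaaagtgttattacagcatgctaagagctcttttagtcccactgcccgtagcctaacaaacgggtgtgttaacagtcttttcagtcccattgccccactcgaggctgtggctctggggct
The last is the stretch at the starts of CIP2A and DZIP3, most of it within the annotated span of CIP2A, at chr3:108308304-108308551, where both lines had a DHS and H3K4me2. These genes point away from each other from start sites 283 bp apart, and both had lower counts in PC9R (below). Its GC content is 65.7% and it holds neither motif.
CIP2A to DZIP3: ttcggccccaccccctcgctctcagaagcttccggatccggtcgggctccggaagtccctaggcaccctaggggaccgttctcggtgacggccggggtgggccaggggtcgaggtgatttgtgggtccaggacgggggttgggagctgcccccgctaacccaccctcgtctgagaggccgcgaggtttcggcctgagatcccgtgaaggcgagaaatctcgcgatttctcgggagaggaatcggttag

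DHS peaks were spread over most of the region, but the bulk lay in its middle. In PC9 the region held 83.4 DHS peaks per Mb, 12.9 times the density in the rest of the genome, and in PC9R 58.5 per Mb, 2.83 times. H3K4me2 peaks were not dense: 25.8 per Mb in PC9 and 43.8 per Mb in PC9R, 0.865 and 1.06 times the rest of the genome. These ratios come from 1 library per line and have no test. A stretch of the same width centred on EGFR (chr7:47683015-62683014) held 58.1 DHS peaks per Mb in PC9 and 104 in PC9R. Only 11.8 Mb of that stretch is sequenced in the assembly, less than of the region, and its densities are per sequenced Mb. It is therefore not a matched comparison. EGFR's surroundings were thus the denser of these stretches in PC9R and the sparser in PC9.

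The dense part had similar borders in the DHS lists of both lines. The best division of the region into 3 segments of constant density, fitted to counts in 10 kb bins, put the PC9 borders at chr3:104140001-111960000 and the PC9R borders at chr3:104220001-111870000. These segments are 7.82 and 7.65 Mb wide. PC9 had 34.1 DHS peaks per Mb before this segment, 137 within it and 12.5 after it, and PC9R had 32.9, 81.3 and 37.1. The PC9 segment, 0.274% of the genome, is called the core below. It held 1072 PC9 and 629 PC9R DHS peaks, 5.46% and 1.06% of each list. The same fit to the H3K4me2 lists found other borders: in PC9 a 0.53 Mb segment at chr3:111300001-111830000 with 126 peaks per Mb, around ZBED2 and PHLDB2, and in PC9R a sparse segment at chr3:102260001-104830000 with 3.5 per Mb. By the cruder rule of 500 kb bins with at least 3 times the genome's mean, the dense run was chr3:97500001-112000000 in PC9 and chr3:105000001-109500000 in PC9R, so the PC9 run passed the left limit of the region.

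The right border was abrupt in PC9 and the left border was a slope. Over the 16 bins of 500 kb from 104000001 to 112000000, PC9 had 56 to 83 DHS peaks per bin (median 66.0), and the next bin had 7. The 6 bins after the border had 2 to 11. PC9R had 22 to 62 per bin (median 38.5) over the same 16 bins, 50 in the last of them and 19 in the next. On the left, PC9 had, over 5 successive bins, 12, 18, 31, 56 and 75 peaks, and PC9R had 8, 15, 14, 25 and 31. The gap between neighbouring DHS across the right PC9 border was 51.9 kb in PC9 and 52.0 kb in PC9R, and across the left PC9 border 23.5 and 68.7 kb. The fitted PC9R borders lie outside these PC9R gaps, and the gaps across them were not measured. At the limits of the region itself, PC9 had 9 DHS in the bin outside and 18 in the bin inside on the left, and 2 and 2 on the right, and PC9R had 20 and 31, then 15 and 10.

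**Figure D1:**
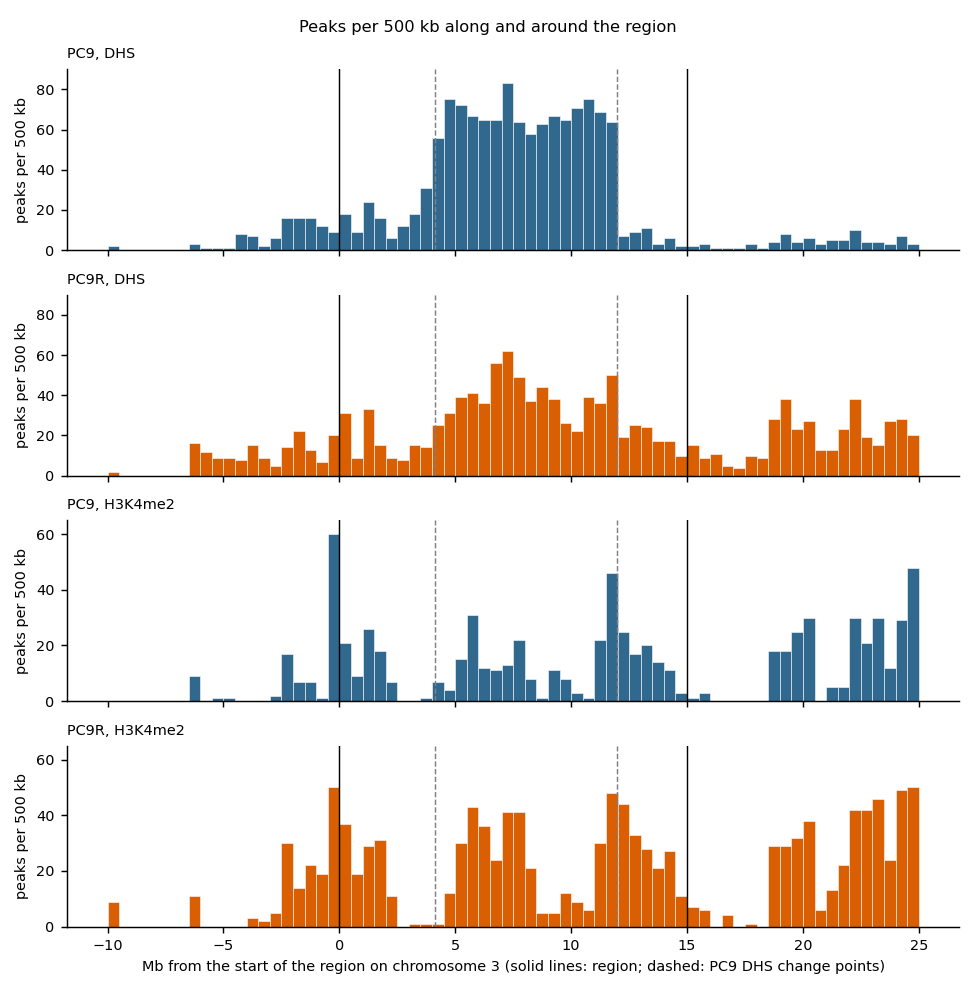
Peaks per 500 kb (vertical axis) against distance in Mb from the start of the region (horizontal axis), 1 panel per peak list. Solid lines mark the region and dashed lines the PC9 change points, and the bins near -9 to -7 Mb hold no sequence in the assembly. PC9 DHS stay between 56 and 83 per bin from 4.0 to 12.0 Mb and drop to 7, while H3K4me2 peaks follow neither border.

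DHS were spaced more evenly in the core than their H3K4me2-bearing subset. In 100 kb bins, PC9 had 6 to 22 DHS peaks in each of 78 bins, with a ratio of variance to mean of 0.803. For DHS without H3K4me2 the ratio was 1.05, and for the 97 DHS with H3K4me2 it was 3.6, where independent placement at constant density would give a ratio near 1. In PC9R the ratios were 1.24 for all DHS, 1.12 for those without H3K4me2 and 1.99 for those with it. The median distance between neighbouring DHS was 6.01 kb in the core against 47.6 kb in the rest of the genome in PC9, and 9.24 against 16.8 kb in PC9R.

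DHS were dense both with and without genes. The flank from 102500001 to 105000000 overlaps 0 protein-coding genes, and it held 192 PC9 DHS peaks and 93 PC9R DHS peaks but 12 and 15 H3K4me2 peaks. All of these DHS lacked H3K4me2 in their own line. From 108500001 to 111000000, where the coding genes are TRAT1, GUCA1C, MORC1, C3orf85, DPPA2, DPPA4 and NECTIN3, PC9 had 63 to 75 DHS per bin, 341 in all, of which 332 lacked H3K4me2. PC9R had 169 there, of which 156 lacked it. Bins were highest in both lines at 107000001 to 107500000, which holds most of BBX, a transcription factor gene of the HMG-box family, with 83 DHS in PC9 and 62 in PC9R.

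Gene bodies of the core filled with DHS whether or not the gene had counts. BBX (chr3:107241783-107530186) contained 54 PC9 and 35 PC9R DHS peaks, 50 and 31 of them without H3K4me2. The long noncoding RNA gene LINC00882 (chr3:106349316-106959518) contained 80 and 58, of which 73 and 52 lacked H3K4me2. CD96 (chr3:111011566-111384597), an immune receptor of T and NK cells that has several accessions and was listed at 0 counts in all 4 libraries, contained 50 and 24, of which 49 and 20 lacked it. MORC1 (chr3:108677095-108836981), a germ cell chromatin gene with 3 counts over all libraries, contained 23 and 14, of which 23 and 12 lacked it. Its start site carried a DHS at chr3:108836777-108837160 that was the third highest-scored of PC9R in the region (score 25.3) and was within no H3K4me2 peak of either line. By contrast ZBTB20 (chr3:114033347-114866139), a longer gene past the core, contained 7 and 21 DHS. Among core genes counted under 1 accession, the 6 with at most 3 counts (RETNLB, TRAT1, GUCA1C, MORC1, DPPA2, DPPA4) had 119 DHS per Mb of gene body in PC9 and 101 in PC9R, and the 6 with at least 5 CPM (CBLB, IFT57, MYH15, CIP2A, DZIP3, ZBED2) had 140 and 96.1. These are 34 and 80 peaks in PC9 and 29 and 55 in PC9R, with no test.

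Most DHS of the region were outside H3K4me2. In PC9 1113 of 1251 lacked an overlapping H3K4me2 peak (89.0%, exact 95% binomial interval 87.1% to 90.7%), against 45.0% in the rest of the genome (44.3% to 45.7%). In PC9R 751 of 877 lacked it (85.6%, 83.1% to 87.9%), against 74.0% (73.7% to 74.4%). Intervals cover counting error only, and the difference has no replicate. The region was chosen for its number of DHS, which is the denominator of these shares. They are therefore a description that is not independent of the choice. Few of the region's DHS lay within 1 kb of a coding start site, 5.76% in PC9 and 8.55% in PC9R against 38.9% and 19.9% elsewhere. Leaving those out, 92.4% of the region's DHS lacked H3K4me2 in PC9 and 91.0% in PC9R, against 68.2% and 87.0% elsewhere. The stretch around EGFR had 88.3% and 87.7%, close to the shares on chromosome 3.

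Within the region the share without H3K4me2 was lower in PC9 where more of the DHS lay at promoters. It was 82.3% before the core (74.9% to 88.2%), 91.0% in the core (89.1% to 92.6%) and 57.9% after it (40.8% to 73.7%, 38 peaks), and 14.2%, 3.45% and 39.5% of the DHS there lay within 1 kb of a coding start site. Away from those start sites the PC9 share was 94.2% before the core (88.4% to 97.6%), 92.4% in it (90.6% to 93.9%) and 82.6% after it (19 of 23 peaks), so it was not higher in the core than before it. PC9R gave 86.0%, 86.3% and 81.2% over all DHS, with intervals that overlapped. Away from start sites the PC9R core was the lowest of its 3 places, at 89.3% (86.5% to 91.6%) against 96.6% before it (91.6% to 99.1%) and 95.4% after it (88.6% to 98.7%). The region held 11.9% of all PC9 DHS without H3K4me2 (1113 of 9388) but 1.35% of those with it (138 of 10260). For PC9R these were 1.7% and 0.819%. These parts also depend on the choice of the region by its number of DHS. Of the DHS found in both lines, over 1 kb from a coding start site and without H3K4me2 in either, 13.2% lay in the region by the PC9 peaks (335 of 2541) and 13.0% by the PC9R peaks (329 of 2530).

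H3K4me2-free DHS of the region were not the weakest of their lists. Scores are the authors' own, and their scale is not stated, so they are given as ranks within a list. The median PC9 DHS without H3K4me2 ranked at percentile 61.7 of the list in the region and at percentile 34.4 elsewhere, and the median PC9R one at 64.9 and 46.9. In the stretch around EGFR these medians were higher still, at percentile 67.1 in PC9 and 73.2 in PC9R. In the region the median DHS with H3K4me2 ranked at percentile 74.1 in PC9 and 79.0 in PC9R. Median widths were 208 bp without and 251 bp with H3K4me2 in PC9, and 211 and 281.5 bp in PC9R. The sites without it lay far from coding start sites: the median distance to a coding start site was 118 kb in PC9 and 60.1 kb in PC9R, against 10.9 and 9.85 kb with it.

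The 2 highest-scored DHS of the region lay at promoters in each line. The highest score in PC9 was at the start of CBLB (chr3:105587992-105588416, score 65.7), followed by the start of ABHD10, a mitochondrial depalmitoylase gene (chr3:111697453-111698292, 50.6). In PC9R the highest was ABHD10 (chr3:111697495-111698360, 34.0), then the start of IFT57, an intraflagellar transport gene (chr3:107940791-107941556, 29.6). The CBLB, ABHD10 and IFT57 peaks all overlapped DHS and H3K4me2 peaks in both lines. The CD96 intron peak printed above scored 27.7, at percentile 98.1 of the PC9 list, without H3K4me2 in either line.

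Part of the region's DHS were found in both lines. Of the 877 PC9R DHS 50.6% overlapped a PC9 DHS (47.3% to 54.0%), against 13.7% in the rest of the genome, and in the core 59.9%. Counted from PC9, 36.1% of 1251 were shared (33.5% to 38.9%), against 43.7% elsewhere. The PC9R list is 59600 peaks long and the PC9 list 19648, and overlap by coincidence grows with density, whose part was not tested. After the core 15.2% of 112 PC9R DHS and 19 of 38 PC9 DHS were shared. Of the H3K4me2 peaks of the core 36.4% of 214 held a DHS in PC9 and 21.4% of 364 in PC9R, against 12.1% and 12.0% elsewhere.

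**Figure D2:**
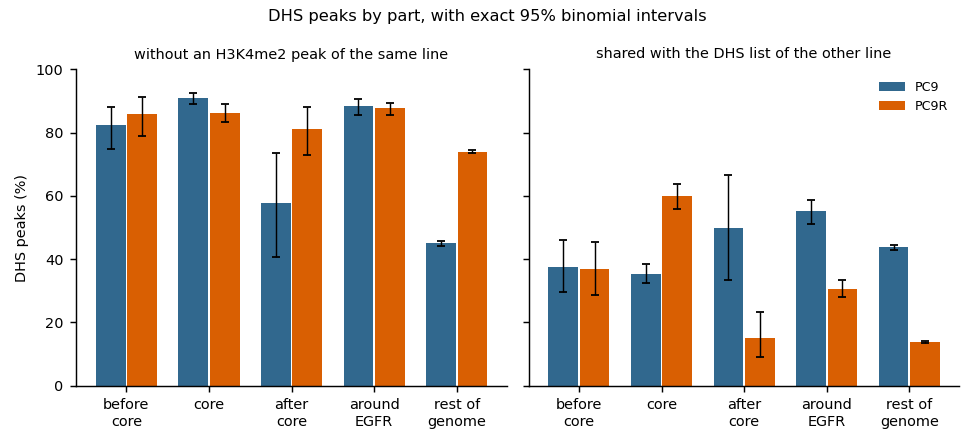
Share of DHS peaks (vertical axis, percent) without an H3K4me2 peak of the same line (left) and overlapping a DHS peak of the other line (right), by place (horizontal axis), with exact 95% binomial intervals. The core stands at 91.0% and 86.3% without H3K4me2, against 45.0% and 74.0% in the rest of the genome, and the stretch around EGFR at 88.3% and 87.7%. On the right, the core stands at 35.4% in PC9 and 59.9% in PC9R, and the stretch around EGFR at 55.1% and 30.6%.

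In the core, AP-1 and TEAD motifs were found more often in DHS with H3K4me2, which were few, and the difference was not tested. Motifs were searched on both strands in 200 bp windows at peak centres, AP-1 as TGANTCA and TEAD as GGAATG, neither of which contains the other. Away from promoters, 16.5% of the 79 PC9 DHS with H3K4me2 held AP-1 and 7.11% of the 956 without it, against 6.72% of all 200 bp windows of the core. PC9R gave 10.9% of 64 and 4.7% of 532. TEAD was found in 15.2% and 11.7% in PC9, and in 23.4% and 7.89% in PC9R, against 9.91% of all windows. All windows of the core are lower in G and C than DHS (below), so they are not a matched background. The same contrast for AP-1 was 13.7% against 7.1% in the rest of the genome in PC9 and 6.53% against 4.19% in PC9R. For TEAD it was 13.9% against 13.3% there in PC9 and 11.9% against 9.19% in PC9R. CTCF, searched by name with its consensus, was found in 2 of 1072 PC9 windows and 0 of 629 PC9R windows, which allows a share of up to 0.477%. That consensus was rare everywhere, at 0.332% of PC9 and 0.25% of PC9R DHS windows in the rest of the genome. It was in 0.0614% of all core windows. With so few matches, a lack of CTCF in the core cannot be read from these counts. A match is a description of letters, not a bound site.

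Core DHS were richer in G and C than the DNA around them. The median GC content of all 200 bp windows of the core was 36.5% (upper quartile 42.0%). Windows at DHS without H3K4me2 had quartiles of 46.5% and 53.0% in PC9 and of 49.5% and 55.0% in PC9R, so the lower quartile at DHS was above the upper quartile of the core. Windows with H3K4me2 had medians of 51.5% and 56.2%. Elsewhere in the genome DHS without H3K4me2 had medians of 53.0% and 55.5%.

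Repeated sequence was frequent among the core DHS found in PC9R only. A window was called repeated when at least 50% of its 16-base words occurred at least 20 times on the chromosome. Of the 240 DHS without H3K4me2 that were not shared, 41.7% were repeated, against 12.5% of the 303 shared with PC9 and 8.71% of all core windows. In PC9 these were 3.88% of the 644 unshared and 8.46% of the 331 shared. On the rest of chromosome 3, PC9R's unshared sites had 15.5%. The sources used here do not say how reads in repeats were placed, and their part in the PC9R list was not tested. Without repeated windows, 82.5% of the region's PC9R DHS lacked H3K4me2 and 89.1% of those of PC9.

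**Figure D3:**
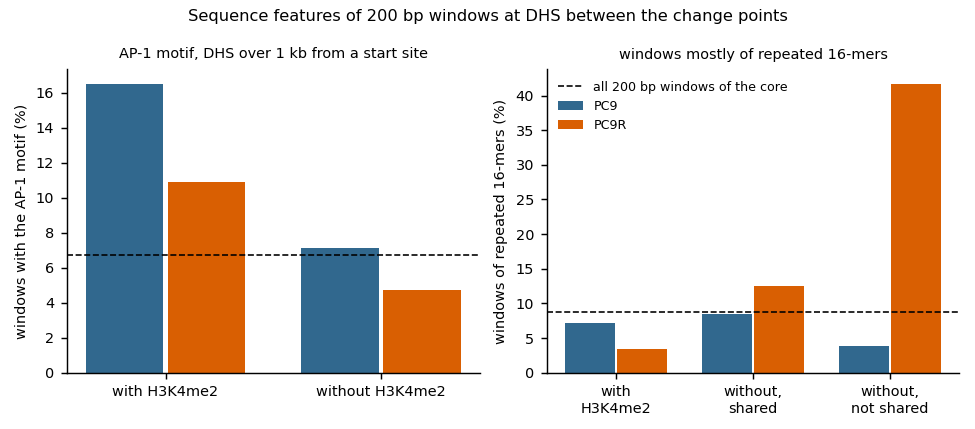
Share of 200 bp windows (vertical axes, percent) with the AP-1 motif (left, DHS over 1 kb from a coding start site) and made mostly of repeated 16-base words (right), for core DHS by H3K4me2 and sharing (horizontal axes). The dashed lines are all windows of the core, 6.72% and 8.71%, and unshared PC9R sites without H3K4me2 stand at 41.7% repeated.

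Most promoters of the core had a DHS in both lines or in neither. Of its 25 coding genes with RNA counts or a listed 0, 14 had a DHS within 1 kb of the start site in both lines, 9 in neither, TMPRSS7 in PC9 only and TAGLN3 in PC9R only. H3K4me2 was at 12 in both lines and at 11 in neither, and DPPA2 and TAGLN3 had it in PC9R only. After the core, 4 genes had a start-site DHS in PC9R only: CD200, BOC, SIDT1 and ZDHHC23, and USF3 had one in PC9 only. Before it, RPL24 had one in PC9 only. Among the 3 highest-scored H3K4me2 peaks of each line, the widest was chr3:108305496-108310251 over the starts of CIP2A and DZIP3 (4756 bp), followed by chr3:107241145-107245436 over the start of BBX (4292 bp).

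Genes of the core were split between those with RNA and those with almost none. Levels per length were compared for coding genes counted under 1 accession, because the 8198 genes with several accessions, of 23371 named ones, took only 6.74% to 7.07% of the counts and their low values were not read as low expression. In bulk RNA, less RNA per cell and fewer cells with the RNA cannot be told apart. The 13 such genes of the core had a median of 0.0524 RPKM in PC9 and 0.0367 in PC9R, against 2.4 and 2.83 over all 10973. Of the 13, 6 had at least 1 RPKM in each line (46.2%, against 54.2% of all in PC9 and 56.1% in PC9R), and the other 7 had at most 0.0524 in PC9 and 0.0367 in PC9R. The 13 before the core had medians of 24.5 and 13.7 RPKM, and the 13 after it 6.71 and 5.15. In the core the highest was CIP2A, at 187 RPKM in PC9 and 58.4 in PC9R, then IFT57 at 109 and 49.7, and DZIP3, a ubiquitin ligase gene, at 42.8 and 17.8. Of the 25 coding genes of the core 10 were listed at 0 in all libraries, 5 of them (RETNLB, TRAT1, GUCA1C, DPPA2, DPPA4) under 1 accession and 5 (BBX, HHLA2, CD96, TAGLN3, TMPRSS7) under several. BBX had DHS and a wide H3K4me2 peak at its start in both lines, so its count of 0 says nothing of its RNA.

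No gene of the region passed edgeR's test between the lines, fitted without a block. Of 45 tested, the quasi-likelihood test called 0 at an adjusted p under 0.05, against 0.19% called higher and 0.0632% called lower in PC9R among all 12660 genes, and the smallest adjusted p of the region was 0.191. At an unadjusted p under 0.05 there were 4 of 45 (8.89%; ABHD10, BOC and C3orf52 lower, ZBED2 higher), against 921 of all 12660 (7.27%). DESeq2 called 2 lower, ABHD10 and BOC, where it called 120 of all genes lower and 261 higher. Limma-voom called 0 in the region, and 19 lower and 54 higher in all. With a replicate block, a pairing that the labels do not state, edgeR called 16 lower and 2 higher of the 45. That fit called 9.57% of all genes lower and 11.2% higher, and its limits are given in the part on processing. The median log2 fold change, PC9R minus PC9, was -0.43 over the 45 genes and -0.87 over the 13 of the core, -0.60 over the 15 before it and -0.02 over the 17 after it, against -0.01 over all genes. Without the second PC9 library the median of the region was 0.03, and without the first it was -0.87. Taken within the first and the second libraries on the scale of log2(CPM + 0.5), the core's median was -1.17 and -0.94 and that of all genes -0.02 and 0.01. For the 7 core genes counted under 1 accession it was -1.17 and -0.43, with 4 lower and 3 higher in both pairs. Their edgeR median was -0.73. Among the 45 genes 27 were lower in PC9R in both pairs of libraries (60%, against 37.4% of all genes). In the core both PC9R libraries were below both PC9 libraries at 6 of 13 genes (46.2%), and over the region at 12 of 45 (26.7%), against 14.9% of all genes. They were above both at 3 of 13 (23.1%) and 7 of 45 (15.6%), against 16.9%. Among the 7 core genes counted under 1 accession they were below both at 3 and above both at 3.

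CIP2A, the inhibitor of the phosphatase PP2A, had the largest excess in PC9 among genes of the core counted under 1 accession. Its levels were 427 and 1100 CPM in the first and second PC9 libraries (762 ± 473, SD, n = 2) and 64.4 and 411 CPM in those of PC9R (238 ± 245, SD, n = 2). Both PC9R libraries were below both PC9 libraries, though the second of PC9R was close to the first of PC9. The fold difference was 3.21 (log2 -1.68, SE 0.87), and edgeR's adjusted p was 0.821. With 1 library left out the log2 fold change ranged from -3.58 without the second PC9R library to -0.86 without the second PC9 library, where the line with a lone library is assumed to vary like the other. DZIP3, its divergent neighbour, had 165 and 289 CPM in PC9 and 70.7 and 118 in PC9R. The libraries did not overlap, with a log2 fold change of -1.26 (SE 0.58) and an edgeR adjusted p of 0.738. IFT57 had 248 and 415 CPM in PC9 and 110 and 193 in PC9R, again without overlap, and a log2 fold change of -1.13 (SE 0.57, edgeR adjusted p 0.811).

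MYH15, a myosin heavy chain gene between IFT57 and CIP2A, had 51.5 and 114 CPM in PC9 and 15 and 85.0 in PC9R, and these libraries overlapped. It had neither a DHS nor H3K4me2 within 1 kb of its annotated start site in either line. CBLB, whose start held the region's highest-scored DHS of PC9, had 69.1 and 82.6 CPM in PC9 and 128 and 89.2 in PC9R. The PC9R libraries were the higher, by 0.52 on the log2 scale (SE 0.54), with 0.89 in the first pair and 0.11 in the second. ZBED2, a zinc finger transcription factor gene, had 9.85 and 12.1 CPM in PC9 and 20.2 and 52.8 in PC9R, with no overlap and a log2 fold change of 1.73 (SE 0.68, edgeR adjusted p 0.568), or 0.86 without the second PC9R library. It had H3K4me2 at its start in both lines and a DHS in neither.

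**Figure D4:**
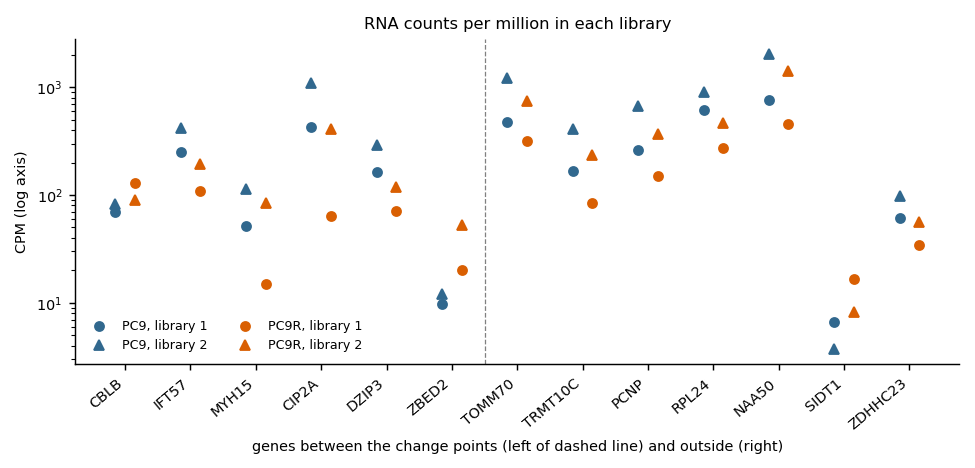
Library-normalized counts, CPM (vertical axis, log scale) of 13 genes counted under 1 accession, in each of the 4 RNA libraries. In CIP2A, DZIP3 and IFT57 both PC9R libraries are below both PC9 libraries, in ZBED2 and CBLB they are above, and second libraries are higher than first ones in most genes.

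Of the core genes with several accessions, ABHD10 had few counts and the others named here more. ABHD10 had 22 and 38 counts in PC9 and 1 and 2 in PC9R, a ratio of 22.2 (exact interval 7.23 to 110, counting error only). Its accessions are 4, and its start held the region's highest-scored DHS of PC9R, so the ratio compares only the reads counted. PHLDB2, a cortical adaptor of microtubules, had 2.04 and 4.67 CPM in PC9 and 0.570 and 1.37 in PC9R. C3orf52 had 5.11 and 7.87 CPM and 1.62 and 2.44 CPM, and the noncoding gene DUBR 27.4 and 58.5 and 16.9 and 30.2. Of these, PHLDB2 and C3orf52 did not overlap between the lines and DUBR did.

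Outside the core the most abundant genes were housekeeping ones. NAA50, an N-terminal acetyltransferase, had 756 and 2020 CPM in PC9 and 453 and 1420 in PC9R. TOMM70, a receptor for mitochondrial protein import, had 470 and 1220 and 320 and 745 CPM. Both overlapped between the lines and had log2 fold changes of -0.57 and -0.66. RPL24, a protein of the large ribosomal subunit, had 619 and 908 CPM in PC9 and 274 and 465 in PC9R, without overlap (log2 -1.05, SE 0.53). TRMT10C, part of mitochondrial RNase P, had 167 and 405 and 83.8 and 233 CPM, and PCNP 264 and 674 and 149 and 366 CPM, with overlap in both. ATP6V1A, a subunit of the vacuolar proton pump, differed by 0.09 on the log2 scale and NIT2 by -0.39.

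After the core BOC and SIDT1 stood apart in opposite directions. BOC, a hedgehog co-receptor, had 3.51 and 1.53 CPM in PC9 and 0.399 and 0.0594 in PC9R, and SIDT1, a membrane protein of the SID-1 family, 6.68 and 3.74 and 16.7 and 8.26. In neither gene did the lines overlap, with log2 fold changes of -3.32 (SE 0.96) and 1.26 (SE 0.68), and edgeR adjusted p-values of 0.279 and 0.85. BOC had few counts, 112 and 23 in PC9 and 14 and 1 in PC9R. With 1 library left out the log2 fold changes ranged from -5.29 to -2.61 and from 0.66 to 1.73. The -5.29 is without the first PC9R library, so that it rests on a count of 1. Both genes had a start-site DHS in PC9R only, so that mark went with lower counts in the first and higher counts in the second. ZDHHC23, a palmitoyltransferase gene with the same DHS pattern, had 61.2 and 97.2 CPM and 34.1 and 56.3 CPM. SLC35A5, CCDC80 and CCDC191 had log2 fold changes of 0.33, 0.57 and 0.39, and TBC1D23 before the core -1.71.

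**Figure D5:**
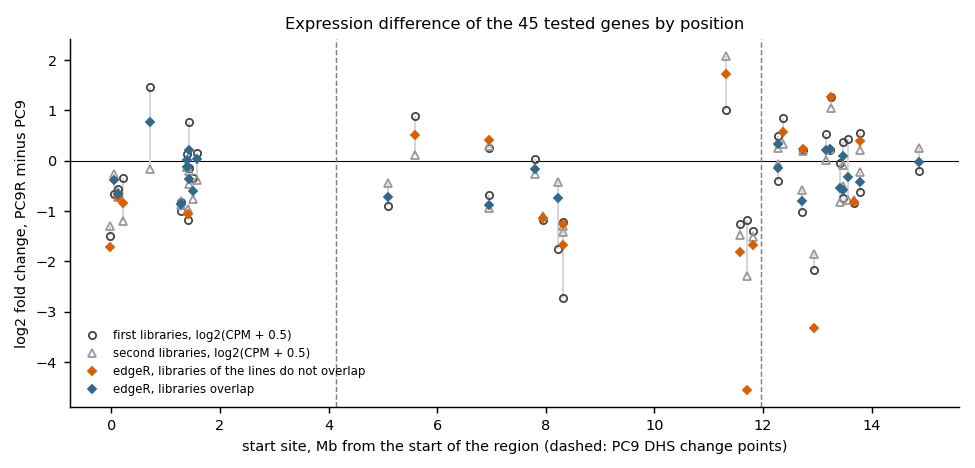
Log2 fold change of the 45 tested genes, PC9R minus PC9 (vertical axis), against the start site in Mb from the start of the region (horizontal axis). Diamonds are edgeR estimates, open symbols are the first and second libraries alone on the scale of log2(CPM + 0.5), and dashed lines are the PC9 change points. Between the dashed lines 9 of 13 genes are lower in both pairs of libraries, among them 4 of the 7 counted under 1 accession. None of the 45 passed edgeR's test without a block.

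In edgeR's fit without a block, no list of genes by function held a called gene. DESeq2 called the list members ABHD10 and BOC lower, and the replicate block called more (see the part on processing). Of the 10 listed surface molecules of the immunoglobulin superfamily 3 were tested (CD47, ALCAM, BOC), with a median log2 fold change of -0.71. CD47, the signal against phagocytosis, had 5.55 and 10.6 CPM in PC9 and 5.72 and 8.74 in PC9R, and ALCAM 1.85 and 4.14 and 0.769 and 2.91. Both have several accessions. TIGIT had 1 count in all libraries. The 11 genes of mitochondria, translation, autophagy and ion pumps were all tested (median -0.66), as were 5 of 6 centrosome, cilium and cytoskeleton genes (-0.36) and 6 of 7 signalling genes (-0.62). Of the 8 nuclear and chromatin genes, 5 were matched by their listed name and tested (-0.54). NEPRO of that list was tested under the symbol RMP64 (0.23) and is not in this median. Of the 12 germ cell and tissue-restricted genes 2 were tested (ABI3BP and CCDC80, 0.67). The median of all genes was -0.01.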

How the data were processed

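The peak lists, 1 per library, and whole-number RNA counts per RefSeq accession were used as the authors deposited them. Per the submitters' processing notes, MACS2, TopHat, HTSeq and DESeq were used with hg19, with no settings stated. Each deposited peak carries a score, whose scale is not stated. Counts of 42811 accessions were summed per gene symbol, with names from the RefSeq table, and gene positions came from GENCODE lifted to GRCh37. Of the annotated genes of the region, 14 whose symbol names several loci were left out. Members, lists and tests were chosen with earlier results of these data known, and the change points, repeated words and core after the peaks were seen. The expression test was edgeR's two-sided quasi-likelihood F test (edgeR 4.0.16, R 4.3.3), without a block, on the 12660 genes that passed filterByExpr, with TMM scaling (also for CPM) and Benjamini-Hochberg adjustment. Named genes were those called in either fit, the 10 with the highest mean CPM, the 6 largest changes per direction with at least 5 CPM, and list members. DESeq2 1.42.0, limma 3.58.1, RLE and upper quartile scaling, other filters, a replicate block and left-out libraries were alternatives. Overlap meant at least 1 bp. Some sequences and peaks that the rules select are not reported here. Scripts were tested on simulated data.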

Additional observations from a re-analysis of the deposited data

How the results depend on the processing

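The count of called genes of the region was 0 under RLE scaling, upper quartile scaling, a stricter filter and limma-voom. It was 2 with no filter and 2 with DESeq2 (ABHD10 and BOC, lower, in both), settings that called 128 and 120 of all genes lower and 312 and 261 higher. Leaving out 1 library gave 0 to 2 calls, 2 without the second PC9R library (ABHD10 and CIP2A, lower). With the replicate block, edgeR called 18, of which 16 were lower and 2 (ZBED2, SIDT1) higher, at 8 lower and 1 higher of 13 in the core, while it called 1211 of all genes lower (9.57%) and 1420 higher (11.2%), and its adjusted p was 0.00321 for CIP2A. That fit keeps 1 residual degree of freedom, and the labels give no pairing of libraries beyond their number. Deviations of same-numbered libraries correlated at 0.829 across genes in 2 pairs, so they varied together. What they share was not tested. The median log2 fold change of the region was -0.55 with no filter and -0.87 to 0.03 with 1 library left out, 0.03 without the second PC9 library (within the first and second libraries it was -0.35 and -0.44), and the medians were -0.08 and -0.85 without the first and second PC9R library. Of 263 values of 24 named genes under alternatives, 0 reversed past the threshold and 10, of 6 genes (ATP6V1A, MYH15, NAA50, NIT2, SLC35A5 and TOMM70), changed sign without passing it, all with 1 library left out. Leaving out 1 library moved the fold of 15 of the 24 by over 1.5 times.

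The right edge of the dense run in PC9 was 112.0 Mb under 250 kb bins, 1 Mb bins and a threshold of 5 times, 111.96 Mb by change points and 113.5 Mb at 2 times the genome mean. Its left edge was less fixed, 102.5 Mb with 250 kb bins, 103.0 Mb at 5 times and 104.14 Mb by change points in place of 97.5 Mb. In PC9R the left edge was 104.0 Mb at 2 times, 106.5 Mb at 5 times and 104.22 Mb by change points, and the right edge 112.0 Mb with 1 Mb bins, 113.5 Mb at 2 times, 107.5 Mb at 5 times and 111.87 Mb by change points. DHS density relative to the rest of the genome was 17.3 in PC9 and 3.82 in PC9R for the upper part of scores (above the median), and 11.0 in PC9 against the rest of chromosome 3. For H3K4me2 in PC9R it was 0.908 for that upper part, 0.972 by covered bases and 1.15 against the rest of the chromosome.

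DHS without H3K4me2 in PC9 made up 84.0% when peaks of either line counted, 92.4% away from promoters and 91.0% in the core. In PC9R they made up 88.1% when H3K4me2 had to cover 50% of the site, 82.4% when it could lie within 500 bp, 91.0% away from promoters and 82.5% without repeated windows. Shared DHS came to 28.4% of PC9 and 40.5% of PC9R sites at a reciprocal overlap of 50%, 42.5% and 55.2% within 500 bp, and 39.3% and 56.3% in the upper part of scores (above the median), and 59.9% of PC9R sites in the core. The cause of these shifts was not tested. With 1 peak list per line, differences between the lines in peaks have no replicate.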
